A study of Mus musculus with 11 samples.

Results

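The distal chromosome 4 zinc finger cluster was examined as the set of 2 kb tiles on mouse chromosome 4 that lie within chr4:143000001-149000000 (build GRCm38), a window that holds the Pramel and Zfp genes of the region together with Fv1 and Miip. It comprised 3000 of the 1362779 tiles deposited. The measurement is HMCP-seq, a kit-based capture and sequencing of DNA that bears 5-hydroxymethylcytosine (5hmC), the oxidised form of 5-methylcytosine made by the TET enzymes. The window was chosen by its position, with the log2 RPKM values of all 11 libraries in these tiles known, so every count and difference given here is a description, and the share over all tiles or all genes stands beside it.

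The libraries came from 3 samples of DNMT_WT at day 2 of conversion to epiblast-like cells (EpiLC), and from 8 samples of TET_WT, of which 3 were embryonic stem (ES) cells at day 0, 2 were EpiLC at day 1 and 3 were EpiLC at day 2. DNMT_WT is the wild-type parent of a triple knockout of Dnmt1, Dnmt3a and Dnmt3b, and TET_WT that of a triple knockout of Tet1, Tet2 and Tet3. Both lines are wild type, and the ES cells of the study were kept in 2i/Lif medium. Each library was made from 10 ng of sonicated DNA. The knockout lines were not analysed here, the labels give no strain for either line, and they do not say whether replicates were separate cultures, so standard errors measure only the spread between these libraries.

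KRAB zinc finger proteins, which the Zfp genes of such clusters typically encode, bind DNA through arrays of zinc fingers, many of them at retrotransposons, and recruit Trim28 (KAP1) and the histone methyltransferase Setdb1 to silence them. Their genes lie in large clusters of related copies that differ between mammals. Members of the PRAME family are leucine-rich repeat proteins mainly of the germ line and early embryo, and Fv1 is a restriction factor against murine leukaemia viruses that derives from a retroviral gag gene. Methylated cytosine in CpG pairs is the substrate from which the TET enzymes make 5hmC.

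The table of genes for the build places 86 protein-coding genes in the window, 23 of the PRAME family (Pramel and Oog genes), 16 zinc finger genes (Zfp genes) and 47 others. The classes were set by gene symbol alone. Rex2 and some predicted genes therefore count as others, although they lie inside the zinc finger or the PRAME cluster. In order along the chromosome they fall into a proximal flank (chr4:143000001-143394440), a PRAME cluster to 144408467, a block of esterase and receptor genes to 145315164, the zinc finger cluster itself (chr4:145315165-147849126) and a distal flank to 149000000 that begins with Miip and Fv1 and ends with Casz1. Promoters of 250 bases before to 50 bases after the annotated start were found in RefSeq for 74 of the 86 genes. The sequences below show the contrast in CpG content that runs through the window and how alike the closest copies are. They are given 5′ to 3′ on the gene's strand, with each CG dinucleotide in capitals, from RefSeq on GRCm38.p6. Pramel14 (chr4:143994320-143994619, minus strand) and Pramel30 (chr4:144329999-144330298, plus strand) were the most alike PRAME promoters, at 97.3% identity. Zfp600 (chr4:146156577-146156876, plus strand) and Zfp979 (chr4:147642459-147642758, minus strand) were the most alike zinc finger promoters, at 94.8%. Fv1 (chr4:147868729-147869028, plus strand) lies where the lines differed, and Agtrap (chr4:148088015-148088314, minus strand) and Fbxo44 (chr4:148160045-148160344, minus strand) belong to the 2 genes of the distal flank with the largest day 2 gains on the log2 scale.
Pramel14: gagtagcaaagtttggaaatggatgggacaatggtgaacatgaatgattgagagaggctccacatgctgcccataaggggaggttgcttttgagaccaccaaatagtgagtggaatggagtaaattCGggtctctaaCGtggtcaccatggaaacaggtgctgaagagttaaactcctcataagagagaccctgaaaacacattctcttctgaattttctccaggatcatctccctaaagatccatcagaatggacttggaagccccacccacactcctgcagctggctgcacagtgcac
Pramel30: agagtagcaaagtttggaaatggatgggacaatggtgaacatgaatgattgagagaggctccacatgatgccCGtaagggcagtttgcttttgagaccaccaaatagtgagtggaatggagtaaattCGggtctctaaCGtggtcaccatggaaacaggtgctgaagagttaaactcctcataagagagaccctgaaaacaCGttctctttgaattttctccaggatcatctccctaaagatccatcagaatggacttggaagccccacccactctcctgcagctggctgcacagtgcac
Zfp600: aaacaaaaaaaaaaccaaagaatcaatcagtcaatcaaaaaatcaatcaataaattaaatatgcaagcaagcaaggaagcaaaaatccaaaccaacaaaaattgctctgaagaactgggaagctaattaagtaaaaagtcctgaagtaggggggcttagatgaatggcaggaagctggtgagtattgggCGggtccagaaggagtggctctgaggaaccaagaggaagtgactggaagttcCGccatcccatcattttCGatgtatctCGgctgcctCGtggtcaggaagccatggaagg
Zfp979: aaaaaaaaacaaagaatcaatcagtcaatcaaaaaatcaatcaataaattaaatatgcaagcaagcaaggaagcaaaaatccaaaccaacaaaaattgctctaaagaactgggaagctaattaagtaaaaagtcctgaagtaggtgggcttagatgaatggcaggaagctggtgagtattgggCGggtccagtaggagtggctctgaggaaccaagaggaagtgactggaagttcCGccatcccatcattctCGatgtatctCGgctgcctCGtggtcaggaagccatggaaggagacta
Fv1: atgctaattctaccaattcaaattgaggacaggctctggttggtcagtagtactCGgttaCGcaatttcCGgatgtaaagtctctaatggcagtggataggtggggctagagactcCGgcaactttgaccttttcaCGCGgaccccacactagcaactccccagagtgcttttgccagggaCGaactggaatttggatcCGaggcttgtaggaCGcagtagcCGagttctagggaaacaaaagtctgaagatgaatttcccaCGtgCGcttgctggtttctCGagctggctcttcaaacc
Agtrap: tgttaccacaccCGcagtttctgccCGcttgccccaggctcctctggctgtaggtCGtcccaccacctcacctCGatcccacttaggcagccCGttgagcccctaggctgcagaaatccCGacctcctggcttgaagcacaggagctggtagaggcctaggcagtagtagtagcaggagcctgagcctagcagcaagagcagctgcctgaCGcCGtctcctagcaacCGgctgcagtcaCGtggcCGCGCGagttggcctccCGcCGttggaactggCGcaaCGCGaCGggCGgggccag
Fbxo44: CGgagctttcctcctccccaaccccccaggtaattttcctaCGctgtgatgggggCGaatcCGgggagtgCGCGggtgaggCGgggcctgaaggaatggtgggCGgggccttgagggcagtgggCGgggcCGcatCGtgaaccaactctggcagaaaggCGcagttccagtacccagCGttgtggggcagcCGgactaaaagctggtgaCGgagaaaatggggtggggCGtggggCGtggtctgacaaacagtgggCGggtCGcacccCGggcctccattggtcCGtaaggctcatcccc

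Counted as CG on either strand, which is the same site, the promoters printed for Pramel14 and Pramel30 held 2 and 4, those of Zfp600 and Zfp979 held 5 each, and those of Fv1, Agtrap and Fbxo44 held 13, 20 and 21. The median was 1.5 over 22 PRAME promoters, 4.5 over 12 zinc finger promoters and 7 over 40 other promoters of the window, against 7 over 27026 promoters of the genome. Only 4.55% of the PRAME and 8.33% of the zinc finger promoters held 10 or more, against 47.5% of the other promoters of the window and 43.9% of all. Over all pairs within a class the median identity was 51.5% for PRAME and 60.9% for zinc finger promoters, and the lowest 44.2% and 44.4%. Only 2 of 231 PRAME pairs and 1 of 66 zinc finger pairs reached 90%, so the pairs printed are not typical. Reads from near-identical copies can be split or lost by an aligner, and no genome was at hand to measure this, so values of single PRAME and zinc finger genes are uncertain to that extent.

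Of the 3000 tiles, 2389 lay between the lower and upper signal limits set over all tiles and entered the fit, 606 lay below and 5 above. Tiles without a read in any library numbered 374, or 12.5% of the window against 4.83% of all tiles, and 308 of them lay in the zinc finger cluster (24.3% of its 1267 tiles). The PRAME cluster held 60 such tiles, the esterase and receptor block 6, and the flanks none. Input DNA was not analysed here, so a tile without captured reads and a tile that reads cannot be placed in cannot be told apart. At the proximal boundary the last tile outside had a mean log2 RPKM of -2.37 at day 2 and -1.83 at day 0, and the first tile inside -0.09 at day 2 and -0.27 at day 0. At the distal boundary the last tile inside had 0.88 at day 2 and 1.38 at day 0, and the first outside 1.38 at day 2 and 1.0 at day 0.

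The libraries held 7342015 to 51604034 recovered reads, and the window took 2722 to 2923 reads per 1000000 reads of a library (RPM). Day 1 replicate 2 was the shallowest. Day 0 replicate 2 stood apart from the other day 0 libraries, with a window median of -1.1 log2 RPKM against -0.62 and -0.66 in replicates 1 and 3, and results that rest on it are given without it too. A tile without reads was deposited as the value of 0.9 reads, so its log2 RPKM depends on the depth of the library. Levels are therefore given first as the mean RPM of a tile, which has no such floor, and then as log2 RPKM, on which the differences and their standard errors (SE) were fitted. For a gene, RPM per tile covers every tile that overlaps its annotated span, and log2 RPKM the tested tiles of the span with 2 kb on both sides. A call is a Benjamini-Hochberg adjusted p under 0.05 in limma over all tiles or all genes of a comparison. The comparisons share libraries (day 0, day 1 and TET_WT day 2 each enter more than 1), so they are not independent of one another.

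**Figure D1:**
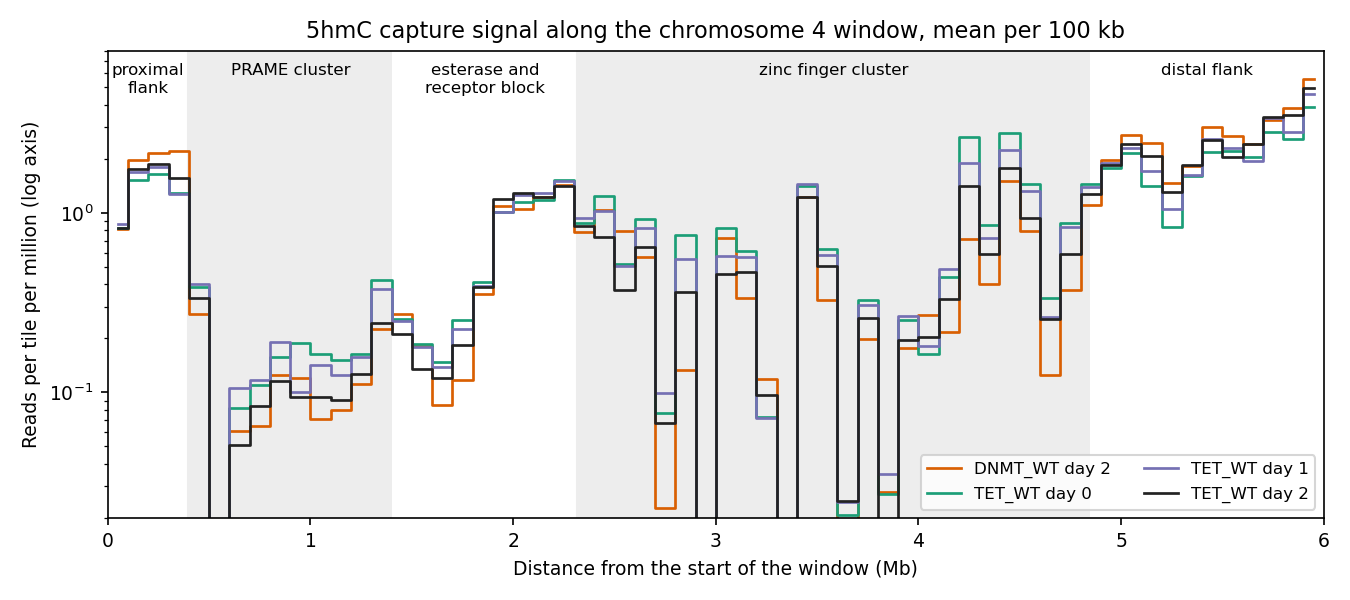
Signal in RPM per tile (vertical axis, log scale, mean of each group) in bins of 100 kb along the 6 Mb of the window (horizontal axis, distance from its start), with the segments marked. The zinc finger cluster is low and broken by 2 bins with almost no reads, at 2.9 Mb (1 read over all libraries) and 3.3 Mb (0 reads), and its higher bins, near 4.2 and 4.4 Mb, show day 0 above day 1 and day 1 above day 2.

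Within the zinc finger cluster the captured signal in RPM was lower at each later day, and lower again in DNMT_WT. The signal in RPM per tile averaged 0.738 ± 0.037 at day 0 (SD, n = 3), 0.641 ± 0.015 at day 1 (n = 2) and 0.501 ± 0.012 at day 2 (n = 3) in TET_WT, and 0.431 ± 0.011 in DNMT_WT at day 2 (n = 3). The single libraries read 0.489, 0.500 and 0.513 RPM per tile at day 2, 0.651 and 0.630 at day 1 and 0.758, 0.695 and 0.760 at day 0, so the days did not overlap. The DNMT_WT libraries read 0.424, 0.444 and 0.425, all below the TET_WT libraries of the same day. The difference of day 2 from day 0 was -32.1%, and between -34.0% and -31.1% when any 1 library of either group was left out. Day 1 differed from day 0 by -13.2%, and DNMT_WT from TET_WT at day 2 by -13.9%. Over all bins of 100 kb of the genome with at least 100 reads, the median difference was 2.64% for the former comparison and -8.21% for the latter.

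Of the neighbouring segments the PRAME cluster was also lower at day 2 than at day 0, and both flanks were higher. In the PRAME cluster the signal in RPM per tile was 0.20 ± 0.011 at day 0, 0.193 ± 0.0047 at day 1 and 0.141 ± 0.0037 at day 2, a difference of -29.2% from day 0, and 0.141 ± 0.0089 in DNMT_WT, a difference of -0.424% from TET_WT. The esterase and receptor block read 0.698 ± 0.0093 RPM per tile at day 2 and 0.691 ± 0.0039 at day 0, a difference of 0.952%. In the proximal flank the values were 1.49 ± 0.022 at day 2 and 1.3 ± 0.013 at day 0, 14.4% higher at day 2, with 1.76 ± 0.042 in DNMT_WT. In the distal flank they were 2.53 ± 0.066 at day 2 and 2.10 ± 0.25 at day 0, 20.3% higher at day 2, and 2.79 ± 0.038 in DNMT_WT, 10.4% above TET_WT. The day 0 libraries of the distal flank read 1.97, 2.4 and 1.94, with replicate 2 the high one, and leaving out 1 library at a time moved the difference between 15.9% and 29.3%.

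**Figure D2:**
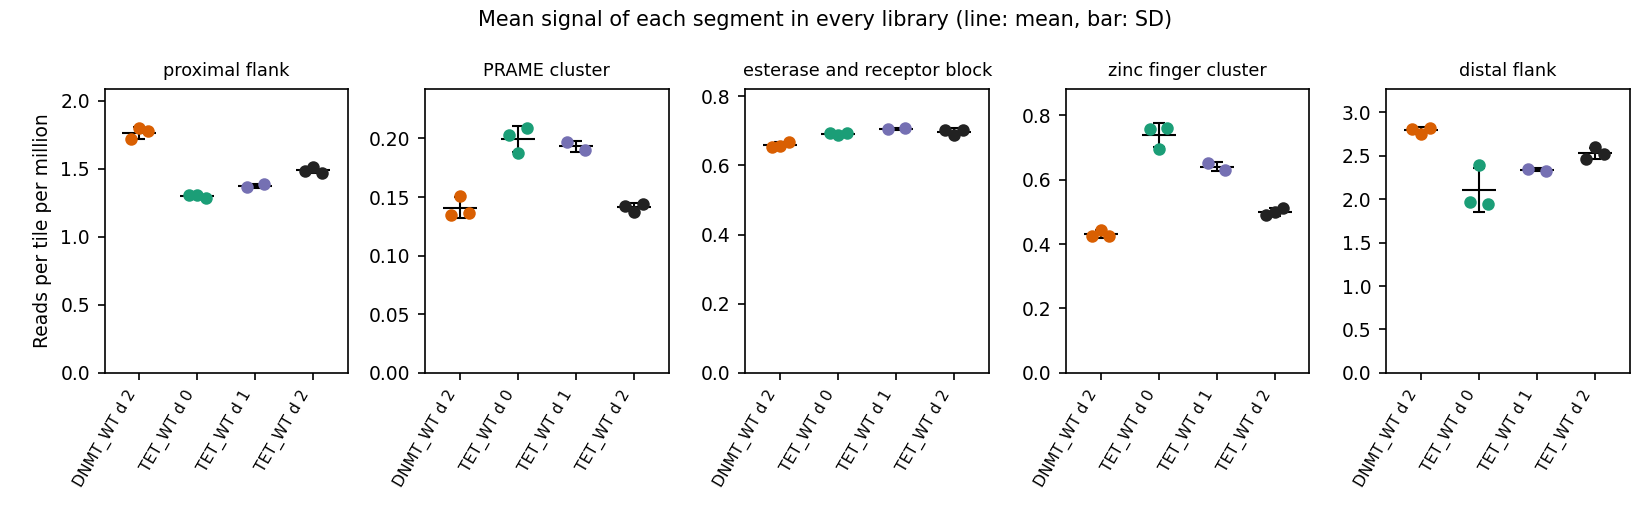
Signal in RPM per tile in every library (points), with the mean (line) and SD (bar) of each group, for the 5 segments of the window, with DNMT_WT day 2 left of TET_WT day 0, 1 and 2. The zinc finger cluster steps down over the days, with 0.738 at day 0, 0.641 at day 1 and 0.501 at day 2, whereas both flanks step up.

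The decrease was spread along the cluster rather than held in 1 place. Of 24 bins of 100 kb with at least 100 reads, 21 had a lower mean at day 2 than at day 0 (87.5%, against 61.0% of 25489 such bins of the genome). In 15 of them every day 2 library lay below every day 0 library, and in 0 above, that is 62.5% lower where the genome gave 21.8% lower and 17% higher. The median difference from day 0 was -24.3% over the bins of the cluster and -5.97% over those of the genome. At 2.8 Mb the bin mean was 0.364 RPM per tile at day 2 and 0.750 at day 0, and at 4.2 Mb it was 1.41 at day 2 and 2.64 at day 0. The decrease at 4.2 Mb came in large part from a run of 5 tiles in Zfp978, described below. Together these tiles held 33.3 RPM at day 2 and 73.0 at day 0. Without that run the whole cluster differed by -30.2%. The bins at 3.2, 3.6 and 4.0 Mb went the other way in their means, with 0.0973, 0.0247 and 0.203 at day 2 against 0.0728, 0.0209 and 0.164 at day 0, and their libraries overlapped.

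All 16 zinc finger genes of the window had a lower RPM per tile at day 2 than at day 0 in the mean, with differences from -1.47% (Zfp987) to -58.5% (Zfp982) and a median of -27.3%. Over the 19415 genes of the genome with at least 100 reads, 40.4% had a lower mean and the median gene stood 5.91% higher. Among 378 Zfp genes elsewhere 190 were lower (50.3%), and their median difference was -0.303%. In 8 of the 16 (50%) the day 2 libraries all lay below the day 0 libraries, and in 0 above, where the genome gave 13.1% lower and 28.7% higher. These genes share a cluster, and Zfp993 and Zfp978 are annotated over long spans that contain other genes, so they are not 16 separate observations. The lower value of Zfp981 rested on a run of tiles, described below.

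Zfp982 (chr4:147443114-147516064) had the largest relative decrease of the class. It read 1.09, 1.13 and 1.12 RPM per tile at day 2, against 2.64, 2.68 and 2.72 at day 0, with 1.90 and 1.73 at day 1 and 0.842, 0.917 and 0.949 in DNMT_WT. The groups did not overlap, and the value stepped down with each day. On the log2 scale the fitted difference was -0.77 (SE 0.25), which did not pass the adjusted threshold. It did pass in the fit without day 0 replicate 2 (-1.14) and with voom on the recovered reads (-1.25).

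Zfp988 read 0.525, 0.482 and 0.495 RPM per tile at day 2, against 1.05, 0.928 and 1.12 at day 0, a difference of -51.6% (-0.45 on the log2 scale, not called). Zfp933 (chr4:147822986-147849126), at the distal end of the cluster, read 0.964, 1.07 and 1.12 RPM per tile at day 2, against 1.85, 1.75 and 1.85 at day 0. It was the 1 zinc finger gene called lower, at -0.61 on the log2 scale (SE 0.18). The call was lost when any of 5 libraries was left out (each of the 3 day 2 libraries, and day 0 replicates 1 and 3), and also with no variance trend, with median centring and at equal depth. Its log2 RPKM was -0.48, -0.35 and -0.27 at day 2, against 0.54, -0.08 and 0.25 at day 0.

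Zfp978 (chr4:147124882-147392027) read 0.807, 0.796 and 0.832 RPM per tile at day 2, against 1.40, 1.47 and 1.35 at day 0, a difference of -42.3%. Zfp981 (chr4:146502000-146539395) was less reduced, with 1.23, 1.14 and 1.24 at day 2 against 1.5, 1.5 and 1.54 at day 0. Neither pair of groups overlapped. Both genes hold a run of tiles, described below. In Zfp978 the run carried a large part of the decrease. In Zfp981 the fall of the mean within the run exceeded that of the whole gene, so its other tiles together were not lower in the mean at day 2. The run in Zfp978 held 33.3 RPM at day 2 and 73.0 at day 0, and that in Zfp981 held 6.6 and 14.3. The values of these genes therefore do not show a decrease over the whole span. Zfp980, Zfp987 and Zfp991 had the largest positive differences of the class on the log2 scale, at 0.11, 0.30 and 0.10, and none was called. By reads Zfp991 differed by -36.2% at day 2 (0.171, 0.192 and 0.187, against 0.324, 0.243 and 0.295 at day 0). On the log2 scale the difference of Zfp991 was negative in 4 other settings.

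Day 0 replicate 2 was low in several weakly covered genes. In Zfp990 it read 0.0782, against 0.402 and 0.417 in the other day 0 libraries, with 0.152, 0.194 and 0.231 at day 2. With it in the fit 1 zinc finger gene was called at day 2 against day 0, and without it 9, all lower (Zfp933, Zfp978, Zfp979, Zfp982, Zfp984, Zfp985, Zfp988, Zfp990 and Zfp992). Leaving it out also raised the calls over the genome, to 22.0% of genes higher and 9.56% lower. The median log2 difference over zinc finger genes was -0.20, against 0.09 over all genes and 0.02 over 379 Zfp genes elsewhere, of which 38 were called higher and 8 lower.

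**Figure D3:**
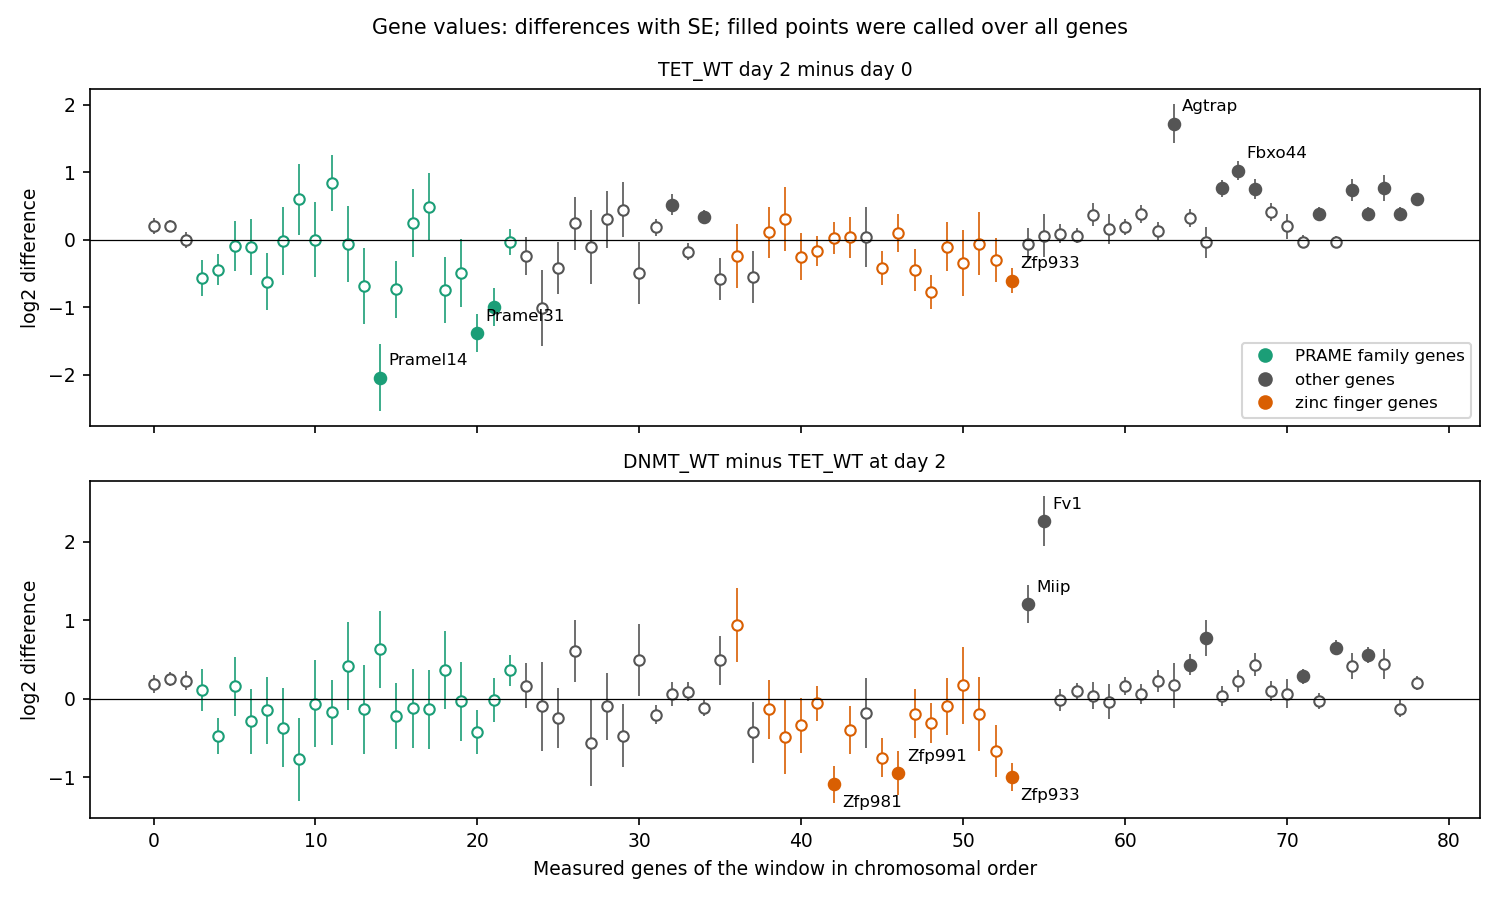
Differences on the log2 RPKM scale with SE for the measured genes of the window in chromosomal order, for day 2 minus day 0 in TET_WT (upper) and DNMT_WT minus TET_WT at day 2 (lower), with called genes filled. In the upper panel PRAME and zinc finger genes sit mostly below 0 (medians -0.28 and -0.20), and Agtrap, at 1.72, highest. In the lower panel Fv1 (2.26) and Miip (1.20) lie highest.

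The lower signal of the zinc finger genes was seen in tiles away from their annotated starts. In 12 tiles that hold an annotated start, the signal in RPM per tile was 0.619 ± 0.089 at day 2 and 0.480 ± 0.14 at day 0 (SD, n = 3 each), and the libraries overlapped. In 438 other tiles of the same genes it was 0.384 ± 0.0078 at day 2 and 0.630 ± 0.057 at day 0, a difference of -39.0% with no overlap. PRAME genes read 0.471 RPM per tile at day 2 and 0.535 at day 0 in 22 start tiles, a difference of -12.0%. In 67 other tiles they read 0.137 at day 2 and 0.199 at day 0, a difference of -31.3%, and neither set overlapped. Most of the PRAME start signal came from the start tile of Pramel1, with mean log2 RPKM of 2.91 at day 2 and 3.01 at day 0. The medians over the tested PRAME start tiles were -3.81 and -3.88. For the other genes of the window 37 start tiles read 0.959 RPM per tile at day 2 and 0.624 at day 0, 53.6% higher, and their other tiles stood 12.9% higher. On the log2 scale the median difference at start tiles was 0.53 for zinc finger, -0.27 for PRAME and 0.72 for other genes, against 0.26 over 25876 start tiles of the genome.

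Tile by tile, 205 tiles of the window were called higher and 99 lower at day 2 than at day 0 (8.58% and 4.14% of those tested, where the genome gave 5.33% and 2.68%, 8.01% in all). The zinc finger cluster held 22 higher and 71 lower (2.63% and 8.49%), and the distal flank 123 higher and 9 lower (21.5% higher). The PRAME cluster held 2 higher and 3 lower. The median log2 difference was -0.27 in the zinc finger cluster, -0.38 in the PRAME cluster and 0.22 in the distal flank, against -0.05 over all tiles. The zinc finger median was -0.55 without day 0 replicate 2, and 0.24 when tiles below the signal limit were kept, many of which hold the floor value. Zinc finger calls numbered 15 higher and 77 lower without day 0 replicate 2, and 5 higher and 22 lower when all libraries were thinned to equal depth. Over the genome 5.17% of tiles were called higher and 2.18% lower without that library, and 1.09% and 0.335% at equal depth.

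The tiles with the largest called losses held few reads each. A tile at Pramel14 (chr4:143990001-143992000) held 2, 1 and 1 reads at day 2, against 19, 17 and 24 at day 0 (log2 difference -3.21, SE 0.90). A tile in Zfp982 (chr4:147468001-147470000) held 1, 4 and 4 at day 2, against 35, 20 and 31 at day 0 (-2.70, SE 0.76). Tiles at the annotated Vmn2r-ps17 (chr4:146134001-146136000) and Gm42346 (chr4:145418001-145420000) differed by -3.05 and -2.78.

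Among the largest called gains, a tile outside any gene in the proximal flank (chr4:143326001-143328000) held 78, 53 and 69 reads at day 2, against 4, 10 and 14 at day 0 (3.76, SE 0.33), and 343, 136 and 216 in DNMT_WT. In Casz1, a zinc finger transcription factor of the distal flank, a tile (chr4:148912001-148914000) held 43, 32 and 48 at day 2, against 13, 5 and 4 at day 0 (3.43, SE 0.48). Zfp993 held a gain inside the cluster (chr4:146564001-146566000), with 10, 13 and 17 at day 2 against 0, 2 and 5 at day 0 (3.41, SE 0.92). The fourth gain, outside any gene (chr4:144806001-144808000), rested mostly on 1 library, with 30, 5 and 8 reads at day 2 against 4, 0 and 0 at day 0.

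Of the highest tiles of the window by mean level over all 11 libraries, 2 lay in Casz1 (chr4:148938001-148940000 and chr4:148932001-148934000, log2 RPKM 3.93 and 3.69) and 1 outside any gene within the zinc finger cluster (chr4:147400001-147402000, 3.90). At day 0 in TET_WT, 2 tiles of Zfp978 that were almost without reads in DNMT_WT read above all 3. These were chr4:147224001-147226000 (4.69, 5.20 and 4.49) and chr4:147218001-147220000 (4.49, 4.90 and 4.46). High signal therefore also occurred inside the otherwise weak cluster.

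**Figure D4:**
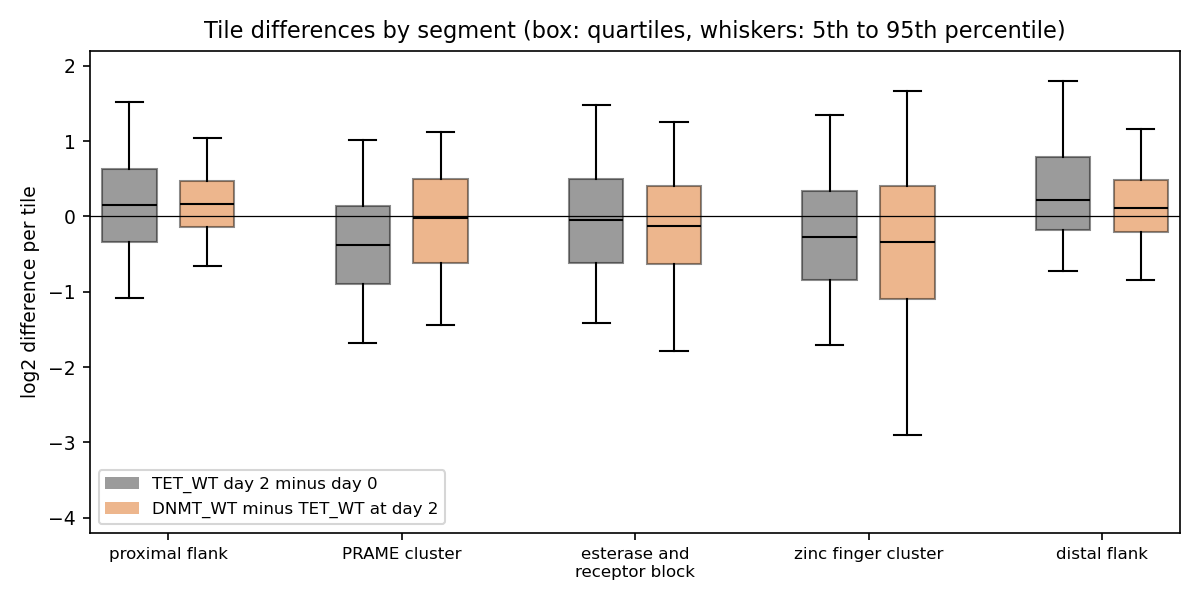
Tile differences on the log2 RPKM scale by segment (line: median, box: quartiles, whiskers: 5th to 95th percentile), for day 2 against day 0 in TET_WT and for DNMT_WT against TET_WT at day 2. The zinc finger cluster is shifted below 0 in both (medians -0.27 and -0.34) and the distal flank above 0 (0.22 and 0.12).

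Among genes, 16 of the 79 measured were called at day 2 against day 0, 12 higher and 4 lower (20.3%, where the genome gave 17.8%, with 15.3% higher and 2.51% lower). The 3 called PRAME genes, of 20 measured, all fell. Pramel14 (chr4:143991127-143994369) read 0.0237, 0.0330 and 0.110 RPM per tile at day 2, against 0.349, 0.279 and 0.425 at day 0, with no overlap (log2 difference -2.04, SE 0.49). Pramel31 (chr4:144357964-144364419) read 0.214, 0.0989 and 0.190 RPM per tile at day 2, against 0.403, 0.261 and 0.498 at day 0 (-1.39, SE 0.29). Pramel15 (chr4:144372760-144377933) read 0.380, 0.363 and 0.414 RPM per tile at day 2, against 1.1, 0.916 and 0.830 at day 0 (-1.0, SE 0.28).

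The calls of Pramel14 and Pramel15 were less firm than that of Pramel31. Pramel14 was no longer called without day 2 replicate 1. Pramel15 was no longer called without day 2 replicate 1 or 2 or day 0 replicate 1 or 3, nor with median centring. Pramel27, Pramel25 and Pramel29 had the largest positive differences of the family, at 0.84, 0.60 and 0.48, none called, and all read under 0.11 in every library. Of the 11 PRAME genes with at least 100 reads, 10 had a lower mean at day 2, 6 of them with no overlap, and the median difference was -40.3%. Over all genes 40.4% had a lower mean, 13.1% lay lower with no overlap, and the median difference was 5.91%.

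The 12 genes that rose all fell in the class of other genes, which carry neither a PRAME nor a Zfp symbol, Casz1 among them. Agtrap (chr4:148077061-148088064), which encodes the angiotensin receptor-associated protein, read 1.06, 1.26 and 1.15 RPM per tile at day 2, against 0.429, 0.728 and 0.486 at day 0, with 0.545 and 0.515 at day 1. Its log2 difference was 1.72 (SE 0.29), the largest of the window, and the libraries did not overlap. Fbxo44 (chr4:148152799-148160183), an F-box substrate receptor of an SCF ubiquitin ligase, read 2.43, 2.82 and 2.48 RPM per tile at day 2, against 1.54, 1.68 and 1.72 at day 0 (1.02, SE 0.14). Its neighbours Fbxo6 and Fbxo2, F-box proteins that recognise glycoproteins, rose by 0.76 (SE 0.13) and 0.75 (SE 0.15), although by reads the Fbxo6 libraries overlapped.

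Tardbp, which encodes the RNA-binding protein TDP-43 and overlaps Masp2 in the annotation, and Srm, the spermidine synthase, rose by 0.76 and 0.73. Srm (chr4:148591513-148594619) read 1.77, 1.53 and 1.62 RPM per tile at day 2, against 0.995, 0.782 and 0.978 at day 0, and day 1, at 0.499 and 0.849, lay near or below day 0. Casz1 (chr4:148804366-148954893) read 4.39, 4.53 and 4.33 RPM per tile at day 2, against 3.0, 3.72 and 2.88 at day 0 (0.61, SE 0.09). Dhrs3, a retinaldehyde reductase gene annotated within the span of Vps13d, was called higher at 0.52, although by reads its libraries overlapped (1.08, 1.15 and 1.28 RPM per tile at day 2, against 0.947, 1.22 and 1.05 at day 0). The call of Dhrs3 held in 12 of 22 alternatives and was lost with no trend, with only the groups compared, with no flank, with median centring, with quantile scaling, at equal depth and with voom, and without day 2 replicate 2 or 3 or day 0 replicate 1. Of the other genes named here the calls of Agtrap, Fbxo44 and Fbxo6 held in all 22. Those of Casz1 and Fbxo2 were lost with median centring, that of Srm at equal depth and with voom, and that of Tardbp with no flank and without day 2 replicate 2. The remaining calls were less firm. They held in 15 of 22 for Angptl7, in 12 for a predicted gene, in 11 for Masp2 and in 4 for Tnfrsf8. The esterase family genes Aadacl3, Aadacl4fm5 and Aadacl4fm1 had the largest negative differences of this class, at -1.02, -0.49 and -0.42, and none was called.

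Fv1 and Miip were not called between the days in TET_WT. Fv1 (chr4:147868979-147870358) read 0.107, 0.445 and 0.183 RPM per tile at day 2, against 0.174, 0.251 and 0.0607 at day 0, with 0.0681 and 0.273 at day 1 (log2 difference between day 2 and day 0 of 0.06, SE 0.32). Miip (chr4:147860778-147868719), which encodes the migration and invasion inhibitory protein, read 0.997, 1.32 and 1.1 RPM per tile at day 2, against 1.03, 1.66 and 1.3 at day 0 (-0.07, SE 0.24). Groups overlapped in both, and the sign of both differences turned when single libraries were left out.

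On day 1 no gene of the window was called against day 0, as in the genome, where 0% of genes were called by limma. At an unadjusted p under 0.05, 10 of 79 window genes passed, against 2551 of 20717 in the genome. The voom weights called 2, Zfp978 and Zfp982, both lower, where over the genome they called 109 higher and 79 lower (0.381% lower). By reads, 11 of 16 zinc finger genes had a lower mean at day 1 (68.8%, against 41.8% of all genes), 5 of them with no overlap (31.2%, against 2139 of 19415 genes of the genome), and the median difference was -6.19%, against 3.37% over all genes. The log2 scale gave the other direction, with a positive difference in 14 of the 16 zinc finger genes. Their median was 0.30, against 0.09 over all genes, and the median tile of the zinc finger cluster differed by 0.18, against 0.19 over all tiles. On the log2 scale the largest differences were 1.63 in Pramel27 and 1.31 in Pramel29, and -1.11 in Pramel14 and -0.72 in Aadacl3, all in weakly covered genes. Tiles called numbered 29 higher and 16 lower (0.601% and 0.409% in the genome, 1.01% in all), with 4 higher and 10 lower in the zinc finger cluster. The largest were Gm13226 (chr4:145576001-145578000, 2.13) and Vps13d (chr4:145034001-145036000, 1.94) on the higher side, and an intergenic tile (chr4:148336001-148338000, -2.69) and Draxin (chr4:148098001-148100000, -1.81) on the lower side.

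Between day 1 and day 2, 7 genes were called higher and 1 lower (10.1%, where the genome gave 9.59%, with 8.99% higher and 0.599% lower). Agtrap and Srm led, at 1.49 (SE 0.32) and 1.22 (SE 0.18). The call of Agtrap was lost without either day 1 library or with median centring, and that of Srm with voom. Also called higher were Draxin, Fbxo6, Fbxo44, Masp2 and Casz1, and Pramel1 was called lower (-1.02). Of 22 alternatives the call of Pramel1 held in only 6, and was lost with the replicate block, at equal depth, with median centring, with quantile scaling and with voom. The calls of Draxin and Fbxo44 held in 11, that of Casz1 in 13, that of Fbxo6 in 15 and that of Masp2 in 19. All 5 were lost with median centring, and that of Draxin also with the replicate block. Without day 2 replicate 2, and likewise without day 1 replicate 2, Pramel1, Draxin, Fbxo44, Fbxo6 and Casz1 were no longer called. Pramel23 and Pramel30 had the largest negative differences, at -1.58 and -1.38, and were not called. All 16 zinc finger genes had a negative difference on the log2 scale, none called, with a median of -0.55 against 0.00 over all genes. On that scale most of them had stood higher at day 1 than at day 0, so it shows no steady decrease over the days. By reads the zinc finger cluster differed by -21.8% between day 2 and day 1. Tiles called numbered 85 higher and 41 lower (2.41% and 0.551% in the genome, 2.96% in all), of which the zinc finger cluster held 7 and 27. With every library centred on its median, 5 higher and 5 lower tiles were called in the cluster. In Agtrap a tile (chr4:148082001-148084000) held 20, 26 and 20 reads at day 2, against 1 and 1 at day 1 (3.63). A tile at Fbxo6 (chr4:148148001-148150000) was higher by 3.06, and tiles at Gm42346 and outside any gene (chr4:145862001-145864000) were lower, at -2.98 and -1.62.

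At day 2 the zinc finger cluster was the segment where DNMT_WT lay furthest below TET_WT. Of its tested tiles 23 were called higher and 96 lower (11.5% lower, where the genome gave 1% higher and 2.24% lower), and its median difference was -0.34, against -0.12 over all tiles. The whole window held 74 higher and 140 lower, and 3.24% of all tiles were called. By reads, 13 of 16 zinc finger genes had a lower mean in DNMT_WT, 10 with no overlap (62.5%, against 18.3% of all genes), and 1, Zfp990, was higher with no overlap (39.8% of all genes). Zfp990 read 0.470, 0.457 and 0.351 RPM per tile in DNMT_WT, against 0.152, 0.194 and 0.231 in TET_WT, so the cluster was not uniformly lower. The median difference from TET_WT was -18.1% over zinc finger genes, 8.31% over all genes and 11.2% over Zfp genes elsewhere. In bins of 100 kb, 15 of 24 lay lower with no overlap (62.5%, against 40.5% of all bins) and 5 higher (20.8%, against 20.1%). The median bin difference was -15.3% in the cluster and -8.21% over the genome.

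The called zinc finger genes were Zfp981, Zfp991 and Zfp933, all lower in DNMT_WT. Zfp981 read 0.785, 0.871 and 0.729 RPM per tile in DNMT_WT, against 1.23, 1.14 and 1.24 in TET_WT (log2 difference -1.09, SE 0.24). Zfp933 read 0.449, 0.499 and 0.489 RPM per tile in DNMT_WT, against 0.964, 1.07 and 1.12 in TET_WT (-1.0, SE 0.18). Zfp991 (chr4:147132093-147180579) read 0.125, 0.134 and 0.0971 RPM per tile in DNMT_WT, against 0.171, 0.192 and 0.187 in TET_WT (-0.95, SE 0.28). In each, all DNMT_WT libraries lay below all TET_WT libraries. The calls of Zfp981 and Zfp933 held in all 22 alternatives. The value of Zfp981 includes a run of 4 tiles almost without reads in DNMT_WT, described below, with a median log2 difference of -5.09. By reads the run, at 6.6 RPM in TET_WT and 0.064 in DNMT_WT, held most of the difference of the gene. No alternative left this run out, and the rest of the gene was not fitted apart from it, so the call does not show a difference over the whole gene. The call of Zfp991 held in 13, and was lost with the replicate block, with median centring, with no filter, at equal depth and without any of 5 libraries (DNMT_WT replicate 1 or 3, or any TET_WT day 2 library). Zfp978 differed by -43.7% by reads and was not called.

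A large part of the Zfp978 difference came from 1 run of 5 neighbouring tiles with log2 differences under -4, 10 kb in all (chr4:147218001-147228000). It held 5, 4 and 7 reads in DNMT_WT, against 885, 677 and 952 in TET_WT at day 2, a ratio of 182 in TET_WT over DNMT_WT after scaling to library size. Day 1 held 334 and 1127 reads and day 0 held 3481, 2681 and 3049. In RPM the run gave 73.0 ± 14.9 at day 0, 43.2 ± 3.17 at day 1 and 33.3 ± 1.64 at day 2 in TET_WT, and 0.20 ± 0.069 in DNMT_WT, so within TET_WT day 2 differed from day 0 by -54.5%. The tile with its largest difference (chr4:147224001-147226000) held 0 reads in each DNMT_WT library and 269, 210 and 288 in TET_WT at day 2, at least 296-fold lower in DNMT_WT when the 3 libraries together are set at 3 reads. This tile and chr4:147218001-147220000 had the largest negative differences of the window, -8.26 and -7.84.

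A run of 4 tiles by the same limit, 8 kb long, lay in Zfp981 (chr4:146504001-146512000), with 4, 1 and 1 reads in DNMT_WT against 187, 136 and 172 in TET_WT at day 2, a ratio of 95.4 in TET_WT over DNMT_WT. Without the Zfp978 run the difference over the zinc finger cluster was -30.2% between day 2 and day 0 and -9.17% between DNMT_WT and TET_WT, an alternative added after these values were seen. The latter lies near the median of -8.21% between the lines over all 100 kb bins of the genome. Tiles with no DNMT_WT read among those with 20 or more in TET_WT at day 2 numbered 17 of 1490 in the window (1.14%, against 0.078% of all such tiles), 14 of them in the zinc finger cluster and 3 in the esterase and receptor block. The reverse held for 2 of 1472 (0.136%, against 0.0623%). As input was not analysed here, lack of the mark and lack of the sequence in 1 line cannot be told apart at these places.

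**Figure D5:**
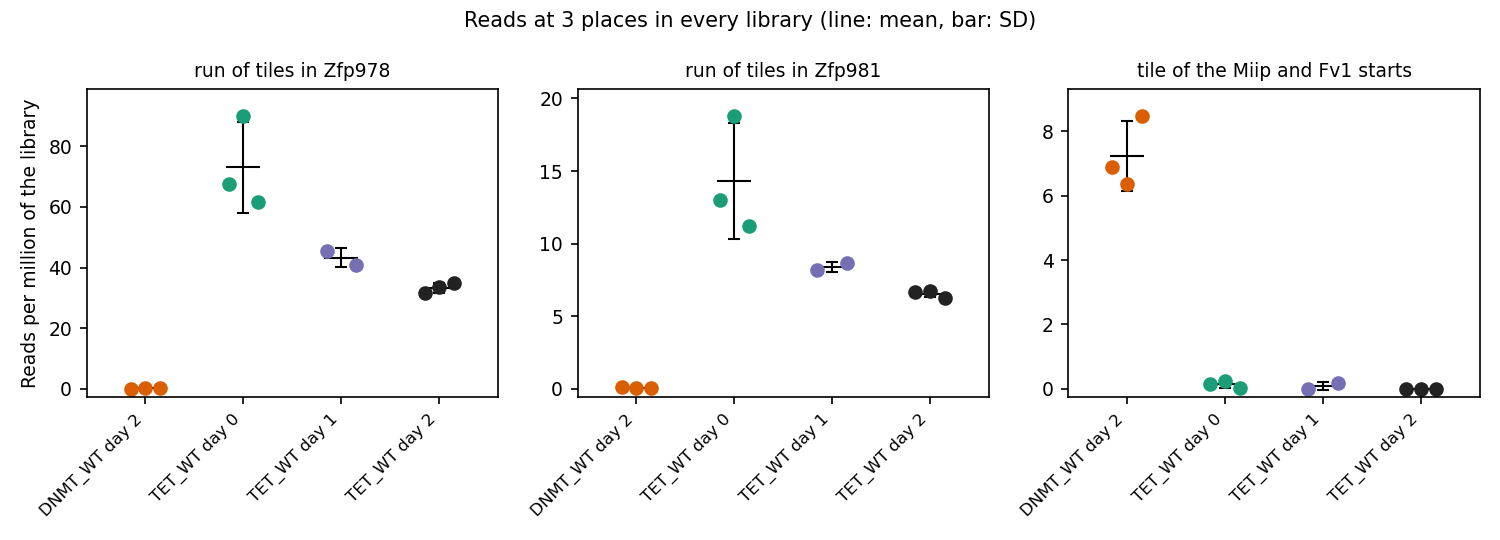
Signal in RPM in every library (points, with mean and SD) at the runs of tiles in Zfp978 and Zfp981 and at the tile of the Miip and Fv1 starts, with DNMT_WT day 2 left of TET_WT day 0, 1 and 2. The Zfp978 run holds 0.20 RPM in DNMT_WT and 33.3 in TET_WT at day 2, and the tile of the Miip and Fv1 starts 7.24 in DNMT_WT and 0 in TET_WT at day 2.

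Just beyond the cluster the difference ran the other way at Miip and Fv1. Their starts lie 260 bases apart, and their promoter windows, of which that of Fv1 is printed above, share 241 bases. The tile that holds both starts (chr4:147868001-147870000) held 285, 105 and 251 reads in DNMT_WT, against 0, 0 and 0 in TET_WT at day 2. In TET_WT it also held few reads earlier, 0 and 5 at day 1 and 8, 7 and 1 at day 0. With the 3 TET_WT libraries together set at 3 reads, DNMT_WT was at least 185-fold higher, and the log2 difference was 7.64 (SE 0.76).

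As genes, Fv1 was higher in DNMT_WT by 2.26 on the log2 scale (SE 0.32) and Miip by 1.20 (SE 0.24), and both were called. Both values include the shared start tile, at 7.64, so the 2 calls are not separate observations. The other tiles averaged for Fv1 differed by 1.25, 0.05 and 0.11, and those for Miip by -0.89 to 1.25. Fv1 read 3.64, 3.4 and 4.47 RPM per tile in DNMT_WT, against 0.107, 0.445 and 0.183 in TET_WT at day 2. Miip read 3.08, 2.59 and 2.95 RPM per tile in DNMT_WT, against 0.997, 1.32 and 1.1 in TET_WT. The tile beside the shared one, within Miip, was higher by 1.25 in DNMT_WT, whereas 2 tiles between Zfp933 and Miip (chr4:147854001-147856000 and chr4:147856001-147858000) were lower, at -2.30 (SE 0.34) and -1.76 (SE 0.31).

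Over the 11 libraries the gene whose values were most like those of Fv1 was Miip, with which it shares the start tile (Pearson r = 0.974), followed by Exosc10 (0.857) and Pdpn (0.854). For Miip the next most alike were Draxin (0.822) and Mtor (0.820). The 3 DNMT_WT libraries stand apart from the 8 TET_WT libraries in both Fv1 and Miip, so these values describe that split as much as any variation within a line. The other genes called higher in DNMT_WT were Exosc10 of the RNA exosome (0.65), Mad2l2, which encodes REV7 (0.77), the complement protease gene Masp2 (0.56), the axon guidance gene Draxin (0.44) and the kinase gene Mtor (0.29). Draxin and Mad2l2 overlap in the annotation. Of 22 alternatives the calls of Exosc10, Masp2 and Miip held in all, that of Mad2l2 in 14, that of Draxin in 13 and that of Mtor in 10, and that of Fv1 held in all 21 in which it was measured. Draxin and Mtor lost theirs with no trend, with median centring and at equal depth, Draxin also with no flank and with quantile scaling, and Mtor also with no filter and with the replicate block. Mad2l2 lost its call with no trend, with no flank, at equal depth and with voom. Each of the 3 also lost its call without DNMT_WT replicate 1 or 3 or TET_WT day 2 replicate 1 or 3, and Mtor also without DNMT_WT replicate 2, TET_WT day 2 replicate 2 or day 0 replicate 3. In all, 7 genes of the window were called higher and 3 lower (12.7%, where the genome gave 19%, with 14.9% higher and 4.07% lower), and without day 0 replicate 2, which is in neither group but adds to the shared spread, 12 were called higher and 5 lower. A tile within Zfp993 (chr4:146908001-146910000) was the other large gain in DNMT_WT, with 30, 14 and 33 reads against 1, 0 and 1 in TET_WT.

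Genes that act with KRAB zinc finger proteins or on the mark lie outside the window. At day 2 against day 0 the genome had 15.3% of genes called higher and 2.51% lower, and between the lines 14.9% higher and 4.07% lower. Of 12 genes for KRAB cofactors and silencing, 3 were called higher at day 2 than at day 0 and none lower, namely Trim28 (0.96), the heterochromatin protein gene Cbx1 (1.31) and the imprint regulator Zfp57 (1.79), with a median of 0.18 for the list. Of 8 TET, DNMT and associated genes, 3 were called higher, Tet1 (0.68), Tet2 (1.26) and Uhrf1 (1.1), with a median of 0.27, and none lower. Of 4 further PRAME genes on the list, of which Pramel1 lies in the window, Pramel6 and Pramel7 were called lower (-2.03 and -0.81), with a median of -0.69. These are differences in 5hmC over the genes and not in their RNA, and the median over all genes was 0.09. In DNMT_WT against TET_WT the first list had 3 called higher (Daxx, Zfp57 and Cbx1), the second 2 (Dnmt1 and Tet1) and the third 0, with none lower in any.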

How the data were processed

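The authors deposited log2 RPKM (reads per kb and per library total, on a log2 scale) for tiles of 2 kb in all 11 libraries, and every column was used. Per the submitters' processing notes, Trim Galore 0.6.5, cutadapt 2.3 and Bowtie2 2.4.1 were used with GRCm38. The counting tool is not given in the sources used here. Whole reads were recovered from the deposited log2 values (tiles without reads hold 0.9 reads, and 100% of values lay within 0.1% of a whole number). They came to 2.32 times the RPKM denominator, for a reason not known, which shifts a library's values alike. RPKM is relative, so a change in total 5hmC cannot be seen, and intervals cover these libraries only.

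The fit took autosomal and X tiles without the 10% lowest and 0.1% highest by mean (1183888 of 1316897). Genes were extended by 2 kb and averaged over at least 3 tested tiles (20717 of 21631 measured). limma 3.58.1 (R 4.3.3, with the data.table package, version 1.17.8) was fitted to all 11 libraries with a variance trend, in 4 comparisons, after tests on simulated data. Voom on recovered reads was an alternative. Descriptions and figures used Python 3.11.15, pandas 2.3.3, numpy 2.4.6, Biopython 1.88 and matplotlib 3.10.9. Named were, per class, the 3 genes with the largest positive and negative difference at day 2 against day 0, Fv1 and Miip, the 2 largest each way in the other comparisons, the 4 (or 2) largest tile differences each way, the 3 highest tiles and the 3 genes most like Fv1 and Miip. Predicted genes were left out. Other names were added for their read values or calls. The members and lists were chosen with earlier results of these data known.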

Additional observations from a re-analysis of the deposited data

How the results depend on the processing

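Main counts of window tiles called were 304 at day 2 against day 0, 45 at day 1 against day 0, 126 at day 2 against day 1 and 214 in DNMT_WT against TET_WT, and of genes 16, 0, 8 and 10, with window medians of -0.07, 0.19, -0.23 and -0.07. Of 218 summary values under the alternatives, 150 stayed within 1.5 times the count or 1 SD of the median. For day 2 against day 0, tiles numbered 51 with no variance trend and 71 at equal depth, genes 10 with no trend, 7 with median centring and 28 with voom, and the median was 0.16 with no filter. For day 1 against day 0, tiles numbered 0 with no trend (limma), 21 with only the groups compared, 7 with median centring, 4 at equal depth and 23 with voom, genes 2 with voom, and the median was 0.38 with no filter. For day 2 against day 1, tiles numbered 0 with no trend (limma), 48 with median centring, 7 at equal depth and 36 with voom. Genes there numbered 4 with no trend, 13 with only the groups compared, 1 with median centring, 5 at equal depth, 4 with voom and 5 with no flank, and the median was -0.45 with no filter, -0.045 over tiles of at least median signal, -0.20 with median centring, -0.062 with quantile scaling, -0.054 with a pseudocount of 0.1 and -0.025 at equal depth. For DNMT_WT against TET_WT, tiles numbered 51 with no trend, 329 with only the groups compared and 25 at equal depth, genes 16 over tiles of at least median signal, 17 with only the groups compared, 6 at equal depth and 24 with voom, and the median was -0.13 with no filter, 0.14 with median centring, 0.028 with quantile scaling and 0 at equal depth. Equal depth leaves fewer reads. For the other settings the cause was not tested.

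Leaving out 1 library at a time gave 226 to 338 tiles, 8 to 32 genes and medians of -0.18 to -0.01 at day 2 against day 0. It gave 12 to 71 tiles, 0 to 1 genes and medians of 0.07 to 0.32 at day 1 against day 0. It gave 58 to 171 tiles, 2 to 17 genes and medians of -0.39 to -0.057 at day 2 against day 1, and 149 to 260 tiles, 6 to 17 genes and medians of -0.084 to -0.018 in DNMT_WT against TET_WT. Median centring gave 168 higher and 60 lower tiles at day 2 against day 0, 6 and 1 at day 1 against day 0, 43 and 5 at day 2 against day 1, and 66 and 86 in DNMT_WT against TET_WT. Deviations of same-numbered libraries from their group means had correlations of -0.288 to 0.299. With 2 or 3 libraries per group these deviations depend on one another, so they cannot decide whether the numbers pair libraries. With the number as a replicate block, tiles numbered 304, 40, 113 and 214 and genes 15, 0, 7 and 9 in the order of the main counts.

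Among the gene differences followed under the alternatives, 19 values, each of a gene under a single alternative, changed sign. All were of genes not called in that comparison. At day 2 against day 0, Zfp991 gave -0.36 over tiles of at least median signal, -0.064 with the pseudocount, -0.15 at equal depth and -0.70 with voom. Miip gave 0.021 with median centring, 0.16 at equal depth, 0.08 without day 2 replicate 1 and 0.22 without day 0 replicate 2. Zfp980 gave -0.0049 with the pseudocount, -0.0065 at equal depth, -0.048 with voom, and with 1 library left out from -0.34 (without day 0 replicate 2) to 0.42 (without replicate 3). Fv1 gave -0.0015 with the pseudocount, -0.20 without day 2 replicate 2, and from -0.37 to 0.37 without 1 day 0 library. Pramel25 gave -0.087 and Zfp987 -0.16 at equal depth. At day 1 against day 0, Pramel27 gave -0.082 at equal depth and Aadacl3 from -1.83 to 0.39 without 1 day 1 library. Tiles of few reads limit the window: with 0.9 reads as the floor, log2 differences of weak PRAME and zinc finger genes move with depth, and reads per tile do not.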
